A study of Mus musculus with 6 samples.

Results

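Cytosolic ribosomal protein genes were followed in RNA-seq libraries of the mouse tailbud, the tissue from which the tail is formed. Members were the rows of the count table whose symbol reads Rpl or Rps, then digits, then at most 1 of the letters a, l and x, together with Rplp0, Rplp1, Rplp2 and Rpsa. The pattern found 83 of 54134 rows, on 19 chromosomes. By name, 51 belong to the large 60S subunit and 32 to the small 40S subunit. In the GENCODE M21 annotation Rps4l, Rpl6l and Rpl32l had no protein-coding transcript. The pattern leaves out rows named as pseudogenes, the kinases of ribosomal protein S6 and a few ribosomal proteins named otherwise. The libraries came from tailbuds of C57BL/6 embryos at embryonic day E10.5, 4 of them wildtype and 2 of the genotype Cdx2P:Nr6a1, with 1 library for each embryo. In Cdx2P:Nr6a1 embryos the promoter of Cdx2, a gene active in the posterior embryo, drives the long isoform of Nr6a1, an orphan nuclear receptor. These were transient transgenics made by pronuclear injection, so each embryo is its own integration event and no stable line stands behind the group. The wildtype group was made up of embryos from the injections that did not carry the transgene. Tailbud meant all tissue caudal to the last somite, a mixture of cell types, in which fewer cells of a type and less RNA per cell cannot be told apart.

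The cytosolic ribosome is built from ribosomal RNA and a protein set that is needed in near-equal amounts, and cells that grow fast spend much of their mRNA on it. Most of these mRNAs begin with a C followed by a run of pyrimidines, the 5′ terminal oligopyrimidine (TOP) tract, through which mTOR and Larp1 set their translation. Loss of 1 gene copy can disturb the body axis: the Tail short mouse lacks a copy of Rpl38, and the Belly spot and tail mouse carries a mutation of Rpl24. Free Rpl5 and Rpl11 bind Mdm2 and so stabilise p53.

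The first bases of the mRNAs are shown here because the TOP tract is what the family is best known to share beyond its function. RefSeq promoters (GRCm38.p6, from 250 bases before to 50 after the start) were matched for 61 members, which had 73 annotated starts. A tract, counted where the annotated start is a C and at least 4 pyrimidines follow, was found at 14 member starts (19.2%), compared with 823 of all 32851 starts (2.51%) and 0 of 75 starts of mitochondrial ribosomal protein genes. Each line gives 10 bases before the start and 18 from it, with the tract in capitals. Rpl15 had the longest tract, Rps6 encodes the protein phosphorylated by S6 kinase, Rpl38 is the gene of the Tail short mouse, and Rps18 and Rps27 recur in the results.
Rpl15 (chr14:18270969-18270996, minus strand): agaaagccttCTTCCTTTCCTCTggcgg
Rps6 (chr4:86857350-86857377, minus strand): gaagtcgggcCTCTTTTTCgtgacgcct
Rpl38 (chr11:114668570-114668597, plus strand): aagcctcgttCTTTCCCCgttctcttcg
Rps18 (chr17:33955648-33955675, minus strand): cacttccgctCTCTCTTCCacaggaggc
Rps27 (chr3:90213631-90213658, minus strand): cgctttcgctCCTTTCCggcggtgacga

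The next starts hold no tract by that definition and are shown for members whose values stand apart. In Rpl27a a pyrimidine run spans the annotated start, where the base is a T and not a C.
Rpl24 (chr16:55966265-55966292, plus strand): gctgttgctaggaaacagactgggcgct
Rpl31 (chr1:39367841-39367868, plus strand): tcctcgcctccccgtgacccggaagttg
Rpl27a (chr7:109519185-109519212, plus strand): cgtgagctcctcccttttccctttctgc

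The same promoters were searched on both strands for the hexamer AGGTCA repeated in direct order without a spacer, which Nr6a1 is known to bind, and for the same hexamer preceded by TCA, which is part of the repeat. Of the 73 member promoters 0 held either, whereas 2 of all 32851 promoters (0.00609%) held the first and 139 (0.423%) the second.

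Library totals lay between 44073460 and 67183802 counts on genes. Nr6a1 stood at 3.91, 5.18, 5.53 and 6.89 counts per 1e6 counts of the library (CPM) in wildtype replicates 1 to 4 and at 23.4 and 33.8 CPM in Cdx2P:Nr6a1 replicates 1 and 2 (log2 fold change 2.41, SE 0.20, adjusted p = 0.00132, edgeR quasi-likelihood test). The groups did not overlap, and the count includes any reads of the transgene. All 10 tailbud and presomitic mesoderm markers were tested, and 2 were called higher in Cdx2P:Nr6a1 and 0 lower. The 2 were Cdx2 (0.35, SE 0.07, adjusted p = 0.0340) and Cyp26a1 (0.73, SE 0.13, adjusted p = 0.0315). The list was split in direction, with log2 fold changes from -0.43 to 0.73, 6 above and 4 below 0. Of the 3 tested neural tube markers Sox1 (1.77, SE 0.25, adjusted p = 0.0116) and Sox3 (1.26, SE 0.16, adjusted p = 0.00714) were called higher, and of the other 6 marker lists (somite, notochord, gut, surface ectoderm, macrophage and endothelium) 0 genes were called. Primitive erythroid genes summed to between 8112 and 19560 CPM in wildtype libraries and to 9800 and 13535 CPM in Cdx2P:Nr6a1, with 0 of 6 called.

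Ribosomal protein mRNAs were among the most abundant of the tailbud. In wildtype libraries 75 members exceeded 100 CPM, and 15 were among the 100 highest rows of the table. Per kilobase of exonic length, the scale on which genes can be compared, Rplp1 was highest at 2042.4 CPM per kb, followed by Rps15 (1142.8), Rplp0 (932.9), Rpl4 (887.3) and Rpl8 (759.8), with a median of 224.7 over the 77 members that passed the filter on low counts. Rplp0 and Rplp1 are proteins of the P stalk that recruits translation factors, Rpl4 lines the exit tunnel and Rps15 lies in the head of the small subunit. The lowest of the 77 were Rpl23a (8.08 CPM per kb), Rpl13a (49.5), Rpl35a (49.8), Rps4l (57.8) and Rpl30 (74.8). The exonic length of a row joins the exons of all isoforms, and the order depends on the length used. On the length of the principal coding mRNA alone Rplp1 stayed highest at 2042.4 CPM per kb, followed by Rps24 (1588.9), Rps15 (1440.0), Rps14 (1384.5) and Rps12 (1308.7). On that scale Rpl35a stood at 357.4 and Rpl30 at 396.3 CPM per kb, whereas Rpl23a stayed lowest at 12.2.

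The share of all counts that fell on members was close to 4% in every library. It was 4.020%, 4.019%, 4.020% and 4.072% in wildtype replicates 1 to 4, and 4.083% and 4.071% in Cdx2P:Nr6a1 replicates 1 and 2. The groups overlapped, because wildtype 4 lay between the Cdx2P:Nr6a1 libraries. The means were 4.033% ± 0.026 (SD, n = 4) and 4.077% ± 0.008 (SD, n = 2), a difference of 0.044 percentage points. The ratio of 60S to 40S counts was 1.28 ± 0.012 in wildtype (SD, n = 4) and 1.278 ± 0.004 in Cdx2P:Nr6a1 (SD, n = 2), so the subunits kept the same proportion of reads to within the spread of the wildtype libraries.

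**Figure D1:**
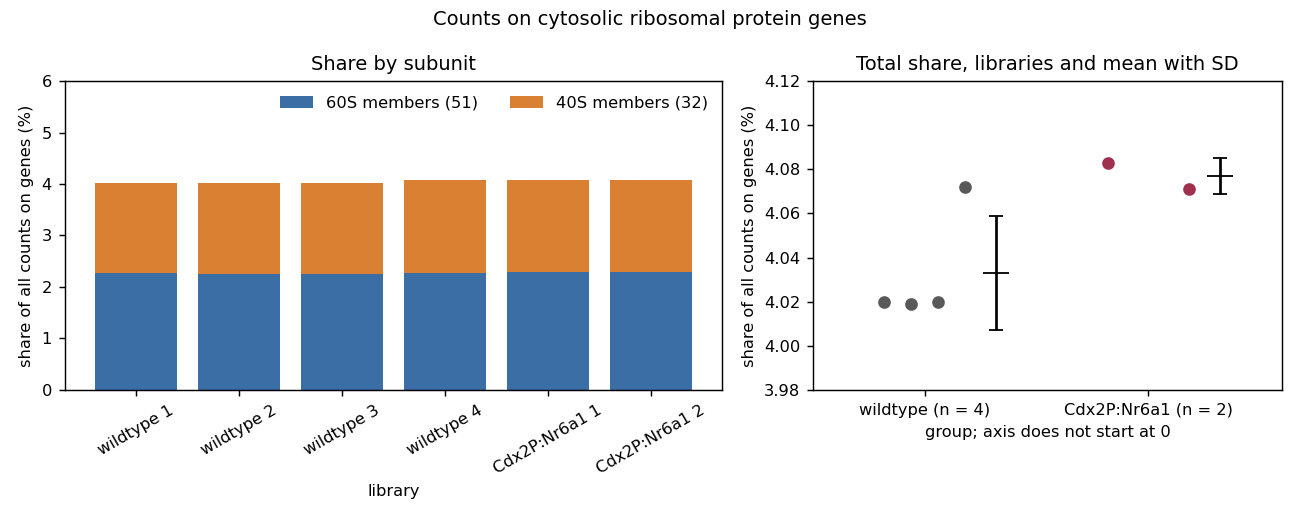
The left panel stacks the share of all counts (percent) on 60S and 40S members in each library, and the right panel shows the total share of each library on an axis that does not start at 0, with the group mean and SD as bars. Wildtype 1, 2 and 3 sit between 4.019% and 4.020%, and wildtype 4 (4.072%) sits beside the Cdx2P:Nr6a1 libraries (4.083% and 4.071%).

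The comparison of the genotypes asked whether forced Nr6a1 expression was accompanied by a change in ribosomal protein mRNA. Of the 77 members tested 0 were called higher and 0 lower at an adjusted p under 0.05, in a comparison that called 203 of 12733 genes (1.59%), 100 of them higher (0.785%) and 103 lower (0.809%). At an unadjusted p under 0.05 there were 3 members, Rps4l above 0 against a background of 706 genes (5.54%), and Rpl36 and Rpl27a below 0 against 636 genes (4.99%). DESeq2, limma voom, the exact test and the likelihood ratio test of edgeR also called 0 members. Log2 fold changes of the members ran from -0.12 (Rpl23a) to 0.15 (Rps4l), with 44 above and 33 below 0. Their median was 0.004, beside -0.001 over all genes tested. It was -0.001 over 45 60S members and 0.009 over 32 40S members.

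The intervals of the members were narrow. The median SE of a member's log2 fold change was 0.053, beside 0.077 over all genes tested. The 95% interval lay within a 1.2-fold change in either direction for 74 of 77 members (96.1%), compared with 53.9% of all genes tested and 87.0% of the 2645 tested genes with at least 100 CPM. Related families stood close to the members, with 94.8% of tested mitochondrial ribosomal protein genes and 96.8% of tested ribosome biogenesis genes. The exceptions among members were Rpl23a, Rps4l and Rps14. The median size of the log2 fold change, regardless of sign, was 0.030 for members, 0.038 for genes of at least 100 CPM and 0.063 for all genes tested. Changes smaller than these intervals could not be told from the spread between embryos.

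**Figure D2:**
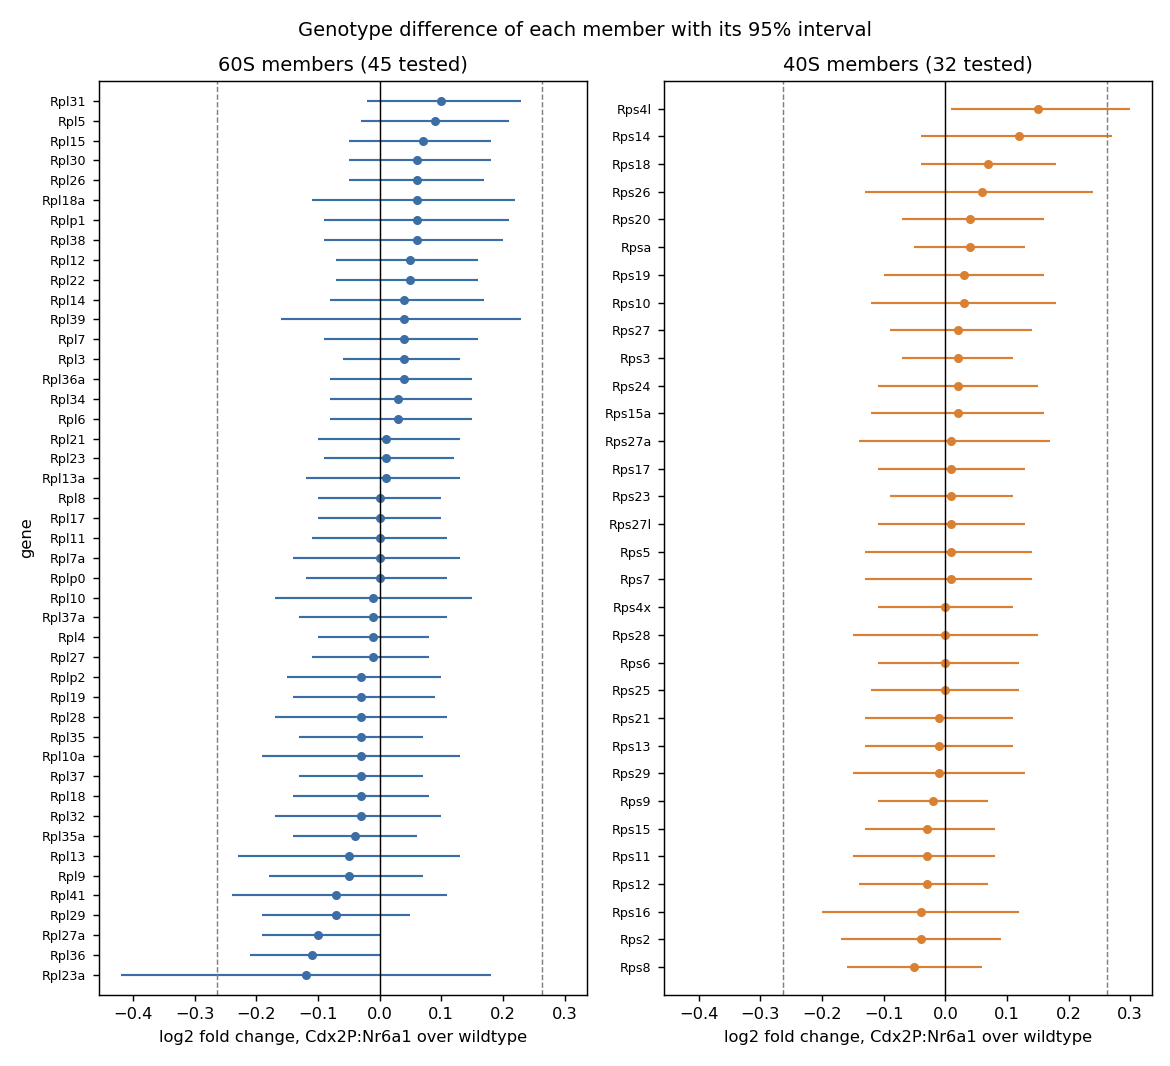
Log2 fold change of Cdx2P:Nr6a1 over wildtype for each tested member (point) with its 95% interval (line), 60S members on the left and 40S members on the right, with dashed lines at a 1.2-fold change in either direction. Points run from -0.12 (Rpl23a) to 0.15 (Rps4l), and 74 of 77 intervals lie between the dashed lines.

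Both Cdx2P:Nr6a1 libraries lay outside the range of all wildtype libraries for 7 members (9.09%), whereas 18.6% of all genes tested showed such a separation, 10.1% above and 8.48% below. Rps4l, Rpl31, Rps18, Rpsa and Rpl3 lay above and Rpl36 and Rpl27a below. The separated members were no more frequent than among genes at large, and the distances were small.

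Rps4l, an autosomal gene named for its likeness to the X-linked Rps4x (chr6:148354656-148355598), had the largest difference. Without a protein-coding transcript in GENCODE M21, the part of its sequence that other genes share was not measured. Rps4l was at 57.6, 54.1, 50.3 and 55.9 CPM in wildtype and 63.2 and 58.7 CPM in Cdx2P:Nr6a1 (0.15, SE 0.06, adjusted p = 0.432, edgeR). The gap between the nearest libraries of the groups was small beside the range within wildtype. Rps14, a 40S protein of the platform, was at 867.7, 760.0, 803.6 and 875.0 CPM and at 942.5 and 857.8 CPM (0.12, SE 0.07, adjusted p = 0.663, edgeR). Its groups overlapped, with Cdx2P:Nr6a1 1 the highest of the 6 libraries. Rpl31, a protein at the rim of the exit tunnel, was at 365.5, 338.5, 347.4 and 369.5 CPM and at 395.4 and 371.3 CPM (0.10, SE 0.06, adjusted p = 0.612, edgeR). Rps18, a protein of the 40S head, was at 483.9, 486.4, 515.6 and 509.4 CPM and at 529.5 and 523.1 CPM (0.07, SE 0.05, adjusted p = 0.729, edgeR). In both, the groups were separated by less than the range of the wildtype libraries. Without Cdx2P:Nr6a1 1 the log2 fold change of Rps14 was 0.05 and that of Rpl31 0.06, and without Cdx2P:Nr6a1 2 they were 0.18 and 0.14.

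At the other end, Rpl36 (chr17:56613395-56614243) was at 212.7, 228.3, 213.6 and 219.9 CPM in wildtype and 200.3 and 207.7 CPM in Cdx2P:Nr6a1 (-0.11, SE 0.05, adjusted p = 0.469, edgeR). Rpl27a (chr7:109519147-109522367), whose mutation in the mouse is known to give anaemia and pigment changes, was at 299.5, 307.2, 310.6 and 306.2 CPM and at 287.7 and 287.0 CPM (-0.10, SE 0.04, adjusted p = 0.472, edgeR). Rpl27a had the narrower spread of the pair within each group. Rpl29 was at 196.1, 186.7, 179.1 and 182.5 CPM and at 172.3 and 183.3 CPM, with overlapping groups (-0.07, SE 0.05). Rpl41, the smallest ribosomal protein, was at 551.7, 473.5, 463.1 and 522.3 CPM and at 482.1 and 482.7 CPM, inside the wildtype range (-0.07, SE 0.08). Rpl23a, at 6.20, 6.73, 6.62 and 7.81 CPM and at 5.60 and 6.97 CPM, had the widest interval of all members, from -0.42 to 0.18 on the log2 scale. When Cdx2P:Nr6a1 1 was left out, the log2 fold change of Rpl23a came to 0.03, that of Rpl36 to -0.07 and that of Rpl29 to -0.02. Rpl29 came to -0.12 when Cdx2P:Nr6a1 2 was left out, and Rpl41 to -0.02 when wildtype 1 was.

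Members whose mouse mutants are known for defects of the axis, skeleton, skin or blood were looked at by name. Rpl38 was at 130.5, 113.1, 121.3 and 122.3 CPM in wildtype and at 124.3 and 129.8 CPM in Cdx2P:Nr6a1 (0.06, SE 0.06). Both Cdx2P:Nr6a1 values lay inside the wildtype range, and the 95% interval of the change ran from -5.89% to 14.7%. Leaving out wildtype 2 or Cdx2P:Nr6a1 2 brought its log2 fold change to 0.02, and leaving out wildtype 1 or Cdx2P:Nr6a1 1 brought it to 0.09. Rps19, the gene most often mutated in Diamond-Blackfan anaemia, was at 406.9, 370.2, 376.5 and 406.3 CPM and at 405.4 and 394.4 CPM (0.03, SE 0.06). Rps20, mutated like Rps19 in mice with dark skin, was at 578.6, 638.9, 639.9 and 611.2 CPM and at 641.2 and 637.0 CPM (0.04, SE 0.05). Rps7 differed by 0.01 (SE 0.06) and Rpsa, the laminin receptor precursor, by 0.04 (SE 0.04). Rpsa was at 1163.4, 1131.0, 1140.9 and 1161.3 CPM and at 1211.4 and 1165.2 CPM, with Cdx2P:Nr6a1 2 just above wildtype 1.

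Rpl24 could not be tested. Its row (chr16:55966275-55971435) held 0.651, 1.11, 0.966 and 0.867 CPM in wildtype and 0.499 and 0.848 CPM in Cdx2P:Nr6a1, below Rpl23a, the lowest of the tested members, and below the filter. Of the 75-base stretches of its mRNA 80.9% also occur in transcripts of other genes, 68.2% in Gm28037 alone, and 47.0% of its exon bases lie under exons of Gm28037, a row that held 0 counts in the 6 libraries. The level in the row is therefore uncertain as a level of Rpl24 mRNA.

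The P stalk, the 5S particle and Rps6 differed between genotypes by no more than 0.09 on the log2 scale. Rplp0, the base of the stalk, was at 1634.2, 1532.1, 1486.3 and 1538.2 CPM and at 1515.0 and 1583.5 CPM. Its partners Rplp1 (0.06, SE 0.07) and Rplp2 (-0.03, SE 0.05) had opposite signs, with overlapping groups. The value of Rplp1 was 0.00 with Cdx2P:Nr6a1 1 left out and 0.11 with Cdx2P:Nr6a1 2 left out. Rpl5 was at 499.8, 505.6, 537.9 and 515.6 CPM and at 570.9 and 528.8 CPM (0.09, SE 0.05, adjusted p = 0.657, edgeR), and its log2 fold change was 0.04 with Cdx2P:Nr6a1 1 left out and 0.14 with Cdx2P:Nr6a1 2 left out. Rpl11, with which it enters the 5S particle, was at 503.0, 537.9, 536.0 and 512.8 CPM and at 531.0 and 517.3 CPM, with a 95% interval of the change from -7.24% to 7.65%. Rps6 was at 387.1, 371.5, 356.3 and 374.7 CPM and at 377.6 and 371.0 CPM, inside the wildtype range.

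The sex of the embryos was not matched between the groups. Reads of Y-linked genes marked 2 libraries as male, wildtype 3 and Cdx2P:Nr6a1 2. The X-linked members Rpl39, Rpl10, Rps4x and Rpl36a had log2 fold changes from -0.01 to 0.04, and 0 of the 4 were called with or without Y-linked expression as a covariate.

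Several members have a close relative encoded elsewhere, and the balance within each pair varied little between libraries. Rps27l, a gene known to respond to p53, took 31.2% ± 0.544 of the counts on Rps27 and Rps27l in wildtype (SD, n = 4) and 31.0% ± 0.713 in Cdx2P:Nr6a1 (SD, n = 2). Rpl22l1 took 20.0% ± 0.864 and 19.2% ± 0.469 of the pair with Rpl22. Rps4l took 7.91%, 7.14%, 7.04% and 7.78% of the pair with Rps4x in wildtype and 8.71% and 7.75% in Cdx2P:Nr6a1, with overlapping groups. Rpl10l and Rpl39l, known mainly from the testis, and Rpl3l, from striated muscle, were near or at 0. Over all 6 libraries Rpl10l held 0 counts, Rpl3l 13, Rpl39l 23, Rpl6l 30 and Rpl32l 57. These 5 and Rpl24 are the 6 members below the filter. Rpl3l had 2, 5, 4 and 2 counts in wildtype and 0 in both Cdx2P:Nr6a1 libraries, too few to compare.

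Near-identical copies limit what a row can say. For 62 tested members at least 25% of the 75-base stretches of the mRNA, the length of a read, also occur in transcripts of other genes, and the median over 76 members with a principal coding transcript was 48.2%. Reads from such stretches may be assigned to the member, to the copy or to neither, and how the counting treated them is not given in the sources used here. Rows named as pseudogenes of members (295 rows) held from 0.195% to 0.287% of the reads on members and pseudogenes together, with the highest share in wildtype 1. A large shared part went with a low row in Rpl24 and Rpl23a but not in Rps27, which shares 98.5% of its stretches with Rps27rt and stood at 321.9, 333.7, 338.4 and 351.7 CPM in wildtype, whereas Rps27rt had 0.897 ± 0.914 CPM (SD, n = 4). Nor did it in Rpl10 (91.9% shared), Rpl9 (91.3%) or Rps12 (89.5%), with wildtype means of 425.6, 669.8 and 646.5 CPM. Exons of another row also cover 66.2% of the exon bases of Rpl35 (under Wdr38), 62.3% of Rpl23a (under Tlcd1), 35.4% of Rpl13a (under Gm45713), 26.7% of Rpl5 (under Fam69a) and 25.3% of Rpl31 (under Tbc1d8). Values of these 5 members are uncertain for that reason, since reads of overlapping genes cannot be told apart where strand was not used in counting.

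The largest shared variation among members ran between wildtype embryos. Among wildtype libraries the coefficient of variation of a member's CPM had a median of 3.96%, close to 3.99% for the 2645 genes of at least 100 CPM and below 5.85% for all genes tested. Rps23 was the steadiest (1.06%), with 323.2, 329.8, 324.5 and 329.7 CPM. Rpl39 varied most (10.6%), with 160.5, 193.0, 208.2 and 191.1 CPM, followed in SD on the log2 scale by Rpl13, Rps26, Rpl23a and Rpl41. The first principal component over the 77 members held 55.4% of the variance and ran from wildtype 1 (score 0.685) to wildtype 3 (-0.535), with Cdx2P:Nr6a1 1 (0.141) and 2 (-0.0795) between them. The second held 25.2% and set Cdx2P:Nr6a1 1 (0.525) apart from all other libraries. Wildtype 2 (-0.291) and wildtype 1 (-0.216) lay farthest from it, and Cdx2P:Nr6a1 2 (-0.0204) lay between. Wildtype 1 was the lowest of the 6 libraries for 30 members (39.0%, beside 26.5% of all genes tested and 29.1% of those of at least 100 CPM). It was the highest for 18 (23.4%, beside 20.6% of all genes tested). Wildtype 4 was the lowest for 1 (1.3%, beside 12.2% of all genes tested).

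**Figure D3:**
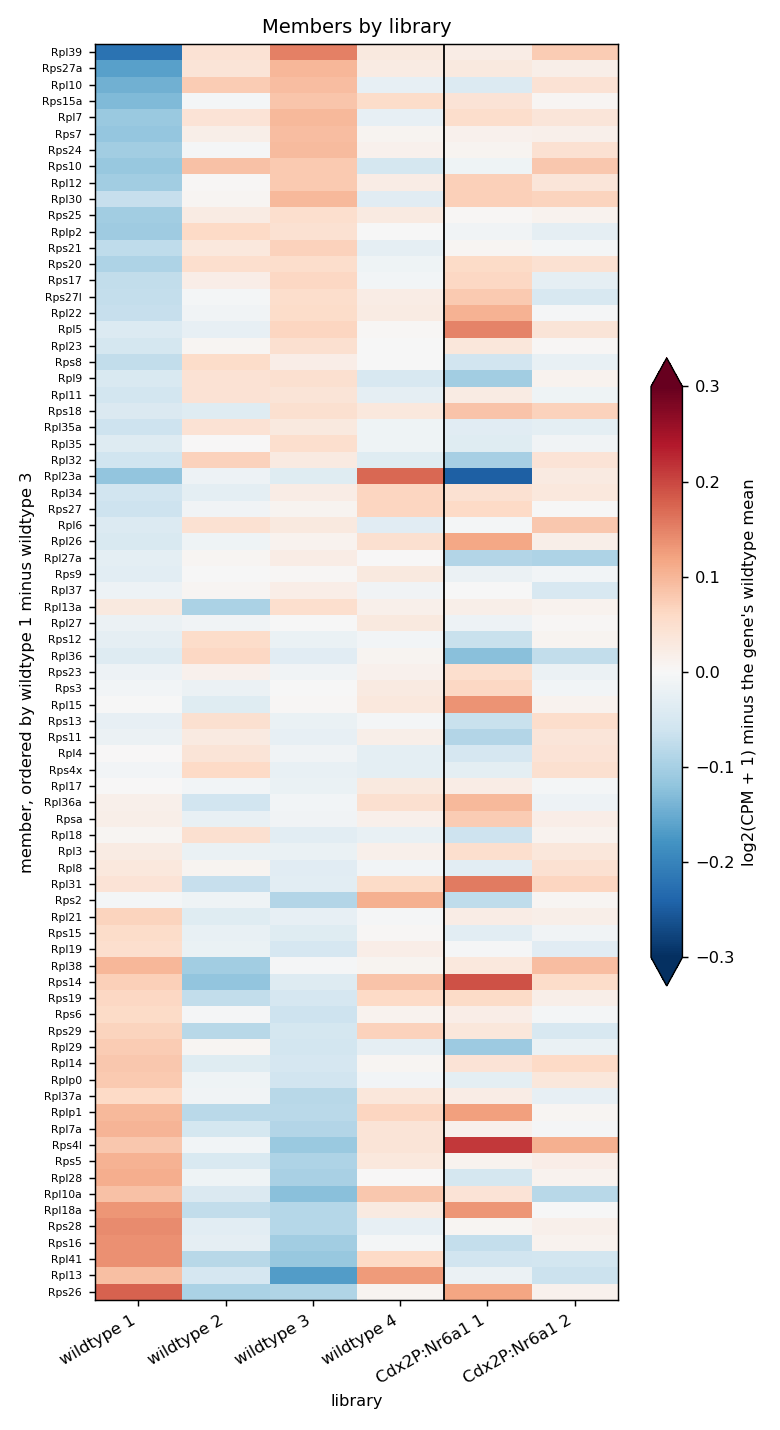
Each row is a tested member and each column a library, and colour gives log2(CPM + 1) minus the mean of that gene over the wildtype libraries, with the colour limits at 0.3 in either direction. Rows are ordered by wildtype 1 minus wildtype 3, so the opposite colours of these columns at top and bottom follow from the order, and the Cdx2P:Nr6a1 columns do not follow the same order.

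The difference between wildtype 1 and wildtype 3 followed the base composition of the mRNA. Across 76 members its correlation with GC content was r = 0.40 (Spearman rho = 0.43), and across 12003 tested genes with a coding transcript r = 0.43 (rho = 0.57). Members share the same library pair and are not independent, so these are descriptions. The 38 members with less GC than the median of 51.9% had a median difference of -0.08 on the log2 scale, and the 38 others 0.08. Rpl39 had the lowest value (-0.37) and Rps26 the highest (0.27), although both have less GC than the median (48.7% and 48.6%). Mitochondrial ribosomal protein genes gave a similar relation (r = 0.58, n = 77), so it was not particular to the cytosolic family. Erythroid marker levels were highest in wildtype 1 (19560 CPM) and lowest in wildtype 3 (8112 CPM), and their part in the difference was not tested. For the genotype difference the correlation of members with GC content was -0.17 (rho = -0.18).

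**Figure D4:**
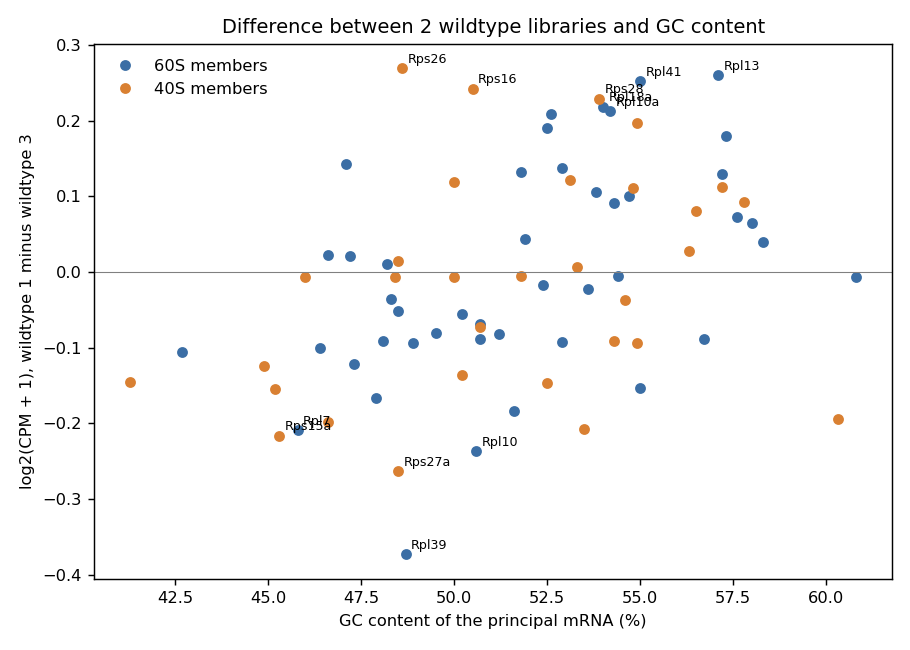
GC content of the principal coding mRNA (percent) against the difference in log2(CPM + 1) between wildtype 1 and wildtype 3, for 76 members coloured by subunit. GC-rich members tend to lie above 0 and GC-poor members below. The ends are Rpl39 (-0.37) and Rps26 (0.27), with a GC content of 48.7% and 48.6%, so Rps26 lies against the tendency.

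Genes that work with the members were read in the same fit. Of 8 cytosolic ribosomal proteins that the name pattern leaves out, 7 were tested and 0 called, among them Rack1 (0.04, SE 0.04), Rps3a1 (0.06, SE 0.05) and Fau (0.01, SE 0.05). Of 78 mitochondrial ribosomal protein genes 77 were tested and 0 called, with a median of -0.004. Of 25 other genes with known TOP mRNAs, largely translation factors, 0 were called, with a median of 0.009. The elongation factors Eef1a1 (0.01, SE 0.03) and Eef2 (-0.06, SE 0.05) were among them. Of 62 ribosome biogenesis genes 0 were called. Their median log2 fold change was 0.028, with 51 above and 11 below 0, where all genes tested gave 6326 and 6407. Both Cdx2P:Nr6a1 libraries exceeded all wildtype libraries for 14 (22.6%), against 10.1% of all genes tested, and lay below them for 0. In either direction all genes tested gave 18.6%. Summed over the list, Cdx2P:Nr6a1 1 (11910.7 CPM) lay below wildtype 3 (11926.2 CPM). The largest values were those of Taf1a, a subunit of the RNA polymerase I selectivity factor (0.21, SE 0.08, adjusted p = 0.404, edgeR), and Polr1e, a subunit of the polymerase itself (0.12, SE 0.05, adjusted p = 0.415).

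Of 29 tested regulators of ribosomal protein mRNA and ribosome number, 2 were called higher and 0 lower. Lin28a, an RNA-binding protein that blocks let-7 maturation and binds many mRNAs of the translation machinery, rose from 161.9, 191.2, 182.2 and 165.6 CPM to 322.7 and 300.5 CPM (0.82, SE 0.07, adjusted p = 0.00131, edgeR). Mycl, a Myc family member, rose from 117.9, 128.5, 123.4 and 121.2 CPM to 149.3 and 160.2 CPM (0.33, SE 0.05, adjusted p = 0.0176, edgeR). The groups did not overlap for either gene. Mtor was at 106.0, 102.9, 101.1 and 105.9 CPM and at 86.7 and 101.0 CPM (-0.15, SE 0.07, adjusted p = 0.473, edgeR), with both Cdx2P:Nr6a1 libraries below all wildtype libraries, the second only just. Myc (-0.14, SE 0.08), Mycn (-0.04, SE 0.07) and Larp1 (-0.05, SE 0.07) were not called.

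Of 21 tested p53 targets and regulators, a list that includes the member Rps27l, 0 were called. At an unadjusted p under 0.05 there were 4 above 0 and 1 below, where all genes tested gave 5.54% and 4.99%. Cdkn1a, the cell cycle inhibitor, was at 50.5 ± 2.71 CPM in wildtype (SD, n = 4) and 61.8 and 61.1 CPM in Cdx2P:Nr6a1, without overlap and just outside the threshold (0.28, SE 0.06, adjusted p = 0.0502, edgeR). Pmaip1 was at 92.2, 118.6, 112.8 and 85.6 CPM and at 140.2 and 140.3 CPM (0.45, SE 0.12, adjusted p = 0.119, edgeR). Ccng1 (0.28, SE 0.12) and Eda2r (0.43, SE 0.18) were above 0 and Sesn1 (-0.13, SE 0.05) below, while Mdm2 differed by -0.02 (SE 0.05).

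Ribosomal RNA reads and mitochondrial reads were read as a sign of library quality. Gm15564 (0.75, SE 0.12), Lars2 (0.76, SE 0.13) and Mir6236 (0.70, SE 0.12), rows that can collect fragments of ribosomal RNA in mouse libraries, were called higher in Cdx2P:Nr6a1 (adjusted p = 0.0186, 0.0262 and 0.0292, edgeR). Lars2 was at 368.0, 432.1, 391.8 and 500.8 CPM in wildtype and 822.7 and 616.2 CPM in Cdx2P:Nr6a1, with wildtype 4 the highest of its group, as it was for the share of counts on members. Their part in that share was not tested. Mitochondrial genes took from 1.27% to 1.64% of the counts, and without them the share on members still differed by 0.044 percentage points.

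**Figure D5:**
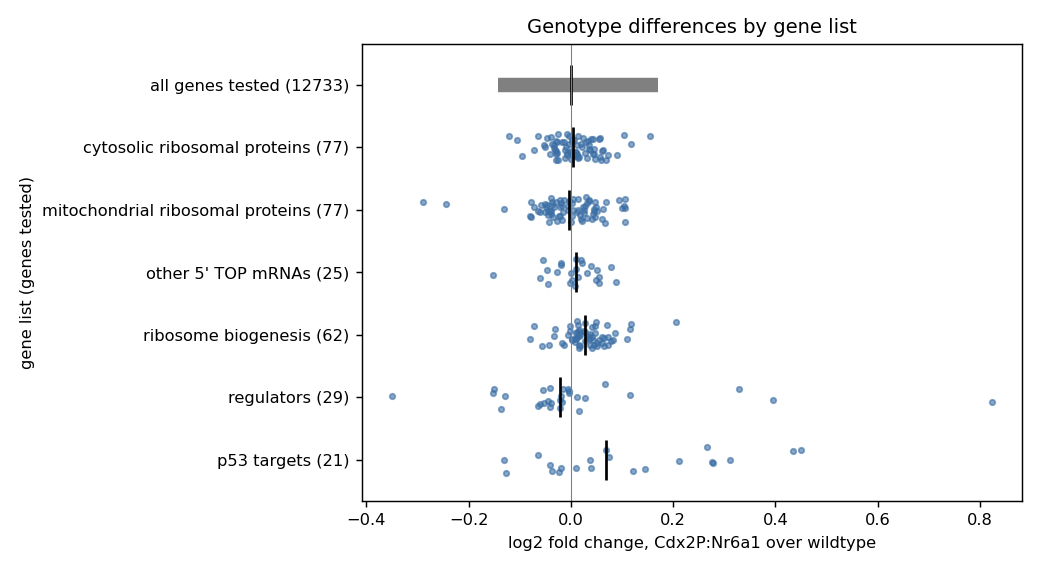
Log2 fold change of Cdx2P:Nr6a1 over wildtype for the tested genes of each list (points, with vertical jitter only for display) and the median of each list (black line). For all genes tested a grey bar runs between percentiles 10 and 90 in place of points. The cytosolic members lie between -0.12 and 0.15, and the rightmost point is Lin28a (0.82).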

How the data were processed

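RNA-seq counts per gene were analysed for 6 tailbud libraries, 4 wildtype and 2 Cdx2P:Nr6a1, grouped by the genotype in the labels. The strain and the stage are those of the labels, and a heading in the source data of the study gives E9.5 in place of E10.5. The mRNA libraries were stranded, and reads were single-end and 75 bp long. The authors aligned the reads with STAR to mm10, according to the submitters' processing notes, and deposited raw counts, which were neither normalized nor filtered. The counting program, the annotation and the use of strand are not given in the sources used here. Of the members' exons 99.7% stand at coordinates of GENCODE M21 (GRCm38). A deposited table of the authors' own fold changes, p-values and CPM was not used. The count table held 0 columns of other samples.

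A gene was tested if 2 or more libraries gave it over 10 counts and over 2 CPM, by the quasi-likelihood test of edgeR 4.0.16 (R 4.3.3, limma 3.58.1) after TMM normalization, without covariates, on 12733 genes. Adjusted p-values are Benjamini-Hochberg values over all of them, with a threshold of 0.05. SE is the log2 fold change divided by the square root of F. CPM was computed from column totals, and errors of CPM and shares are SD over embryos. The biological coefficient of variation was 9.40%. The principal coding mRNA is the basic GENCODE transcript ranked best by APPRIS. DESeq2 1.42.0 served as an alternative, and Python 3.11.15 (pandas 2.3.3) was used for tables.

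The genes named are the members at both ends of the fold changes, of the levels per kb and of the wildtype spread, those with a named relative, the P stalk, the 5S particle, those with known mouse mutants, X-linked members, members below the filter and called genes of the lists. Rps24, Rps12, Taf1a, Polr1e, the other uncalled genes of the lists and the steadiest or most shared members were named after their values were seen. The members and all gene lists were chosen with earlier results of these data known, so they are no independent support.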

Additional observations from a re-analysis of the deposited data

Results flagged for a closer look

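The share of all counts on members was 4.072% in wildtype 4, apart from the other wildtype libraries, which lay between 4.019% and 4.020%. The gap was 0.981 of the whole range of the group, above Dixon's 95% critical value for 4 samples. Chance marks about 1 group in 20, and 39 wildtype values were examined, of which 1 was marked.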

How the results depend on the processing

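Under the 18 alternatives with a test (RLE normalization, column totals only, TMM without the members, filterByExpr, no filter, robust estimation, likelihood ratio test, exact test, DESeq2, limma voom, Y-linked expression as a covariate, the replicate block and each of the 6 libraries left out) 0 members were called higher and 0 lower. The lowest adjusted p of any member was 0.227, and from 0 to 3 members had an unadjusted p under 0.05. The calls over all genes moved far more, from 61 with either Cdx2P:Nr6a1 library left out to 401 by the likelihood ratio test, 477 by DESeq2 and 876 without a filter. The median of the members stayed between -0.006 and 0.011, and the difference in share between 0.038 and 0.057 percentage points. The replicate numbers did not pair the samples (correlation of deviations 0.270 for number 1 and -0.226 for number 2). With the replicate number as a block 0 members were called, their median was 0.010, and 442 genes were called in all.

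On unrounded values, 31 of the 77 tested members kept their direction in every alternative. Of 684 values of 36 named members 13 turned direction, where a value of 0.00 was given none. Rpl10 came to 0.03 with the replicate block and Rps7 to -0.01 with the Y-linked covariate. The others came from leaving out 1 library, which moved Rpl10 between -0.06 and 0.04, Rpl13a between -0.03 and 0.02, Rpl23a between -0.30 and 0.03, Rpl36a between -0.02 and 0.09, Rpl39 between -0.03 and 0.09, Rpl4 between -0.06 and 0.04, Rps27l between -0.05 and 0.07 and Rps7 between -0.03 and 0.04. Rpl23a, at the lower end of the members' fold changes, was at 0.03 without Cdx2P:Nr6a1 replicate 1. The cause was not tested. With 1 library left in a group, its spread is taken from the others. With 2 against 4 embryos the median SE of a member was 0.053 on the log2 scale.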
